A study of Mus musculus with 16 samples.

Results

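Conditional knockout of Col17a1 in mouse hair follicle stem cells (HFSC) was examined on 4 one-colour Agilent expression arrays, chosen by their labels out of 16 in the series. These were the young Col17a1 cKO and the young control, each with 1 array labelled tHFSC and 1 labelled aHFSC, all 4 on the same slide. The labels do not spell out tHFSC and aHFSC. They state hair plucking 3 days earlier for the aHFSC of both genotypes. The cKO mice were Col17a1 flox/flox with K15crePR, a Cre that is active in K15-positive cells after RU486 is applied, and the control mice were WT (C57BL/6), for which no Cre is given. All mice were 12 weeks old and had received RU486 on the skin, 2.5 mg for 5 days at 8 weeks of age. Cells were sorted as CD34(Hi), ITGA6(Hi) and ScaI(-), where ScaI stands for the stem cell antigen Sca-1. The labels do not say how many animals gave the cells of an array, and no group has a second array. The spread measured here is therefore the scatter of the young HFSC conditions around a common difference between the cell states, and may be technical. A genotype difference that is unequal in the cell states adds to it. The 4 other young HFSC arrays of that slide, a tHFSC and an aHFSC array each of the aPKC cKO (aPKCλ flox/flox, K15crePR, RU486) and of hCOL17A1 transgenic mice (no RU486 given in their labels), entered the fit to supply that spread. For these arrays the labels give no time after plucking, and for the aPKC cKO no RU486 dose or number of days.

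COL17A1 is a transmembrane collagen that ties the keratin cytoskeleton of basal keratinocytes to the basement membrane through hemidesmosomes, together with the α6β4 integrin. In the hair follicle it is carried by the slow-cycling stem cells of the bulge, a niche that rests through most of the hair cycle and feeds the growing hair when activated. Keratinocytes that leave the basement membrane normally switch from the basal keratins Krt5 and Krt14 to Krt1 and Krt10 and then build a cornified envelope, whereas wounding turns on the keratins Krt6 and Krt16 and ligands of the EGF receptor.

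Levels are on a log2 scale, in which 0 is the 75th percentile of an array's processed signals. Every set of values is given with tHFSC first and aHFSC second, a pair is the cKO and the control array of 1 cell state, and a difference is the cKO minus the control, averaged over both pairs, with the standard error (SE) of the fit. Each gene is 1 probe, and levels of different genes cannot be compared. Of 30144 genes tested with limma, none passed at an adjusted p of 0.05 (0 percent), and the smallest adjusted p was 0.929, so no gene below rose or fell by that test and each has an adjusted p of at least that size. At an unadjusted limma p under 0.05 there were 1561 genes (5.18 percent), of which 623 were higher in the cKO (2.07 percent) and 938 lower (3.11 percent). Without the control tHFSC array these counts were 385 and 581. There were 963 higher without the control aHFSC array and 518 lower without the cKO tHFSC array. The share of higher genes among the 1561 was 39.9 percent, against 51.9 percent after quantile normalization and 52 percent after normexp background correction, another way to remove background. With normexp 41 of the 102 differences of named genes that could be compared were over 1.5 times smaller or of the opposite sign, and with the mean of a gene's probes 14 of 111 were. Over all genes the median difference was -0.13 in the tHFSC pair and -0.045 in the aHFSC pair, and 20.1 percent were higher in both pairs and 33.4 percent lower. Between 74.4 and 79.8 percent of the probes held were well above background on the 4 arrays. The scanner file of the control tHFSC array holds 46417 of 55681 probes. For the others, which include 4852 of the genes tested, the value of that array was filled from the authors' value table without a background flag, and a gene concerned is marked below as filled.

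The targeted gene was examined first. Col17a1 stood at 7.02 and 6.17 in the control and 6.75 and 5.97 in the cKO (difference -0.23 ± 0.095, adjusted p = 0.929). Both cKO arrays were below the control array of the same cell state, but the cKO tHFSC level was above the control aHFSC level, so the groups overlapped. In the other young HFSC it stood at 7.0 and 6.46 in the aPKC cKO and 6.97 and 6.21 in hCOL17A1 mice. The probe lies on mm9 chromosome 19, 47720894 to 47720953. The floxed exons are not named in the labels, and a probe outside the deleted part checks nothing.

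The remaining genes of the hemidesmosome and basement membrane showed no common direction. Of 25 measured members, 6 were higher in the cKO in both pairs and 6 lower in both, against 20.1 and 33.4 percent of all genes. The integrin partner genes were close to their controls. Itga6 stood at 4.45 and 4.25 in the control and 4.36 and 4.4 in the cKO (difference 0.033 ± 0.18) and Itgb4 at 3.67 and 3.28 in the control and 3.77 and 3.52 in the cKO (difference 0.18 ± 0.20). Plec and Dst, which encode the plakins that link hemidesmosomes to keratin, stood at 4.17 and 3.22 in the control and 3.88 and 3.36 in the cKO and at 5.4 and 5.09 in the control and 5.53 and 4.95 in the cKO. Lama3 (filled) and Lamb3, which encode laminin chains, stood at 4.64 and 3.81 in the control and 4.29 and 4.03 in the cKO and at 4.67 and 3.68 in the control and 4.3 and 3.76 in the cKO. In each of these 4 genes the pairs had opposite signs. Only Col4a6, a basement membrane collagen chain, had an unadjusted p under 0.05 in this list. It stood at 0.51 and 0.65 in the control and 1.18 and 1.74 in the cKO (difference 0.88 ± 0.34, unadjusted p under 0.05), with both cKO arrays above both control arrays.

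Genes of epidermal differentiation were higher in cKO than in control tHFSC and close to control in aHFSC. The list has 40 genes, of which 39 were measured (not the loricrin gene) and 30 were well above background on all 4 arrays. Filled members, here 6, have no flag on control tHFSC and cannot enter such a count, in this list or those below. Of the 39 measured, 28 were at least 2-fold higher in the tHFSC pair, where 10 percent of all genes were. In the aHFSC pair 1 was, where 6.75 percent of all genes were. The median of the members was 2.0 in the tHFSC pair and -0.058 in the aHFSC pair. In both pairs 14 were higher and 2 lower, against 20.1 and 33.4 percent of all genes. At an unadjusted limma p under 0.05, 4 were higher and 1 lower, where 2.07 and 3.11 percent of all genes were. Without the control tHFSC array the fitted median of the list was 0.63, against 0.93 with it.

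**Figure D1:**
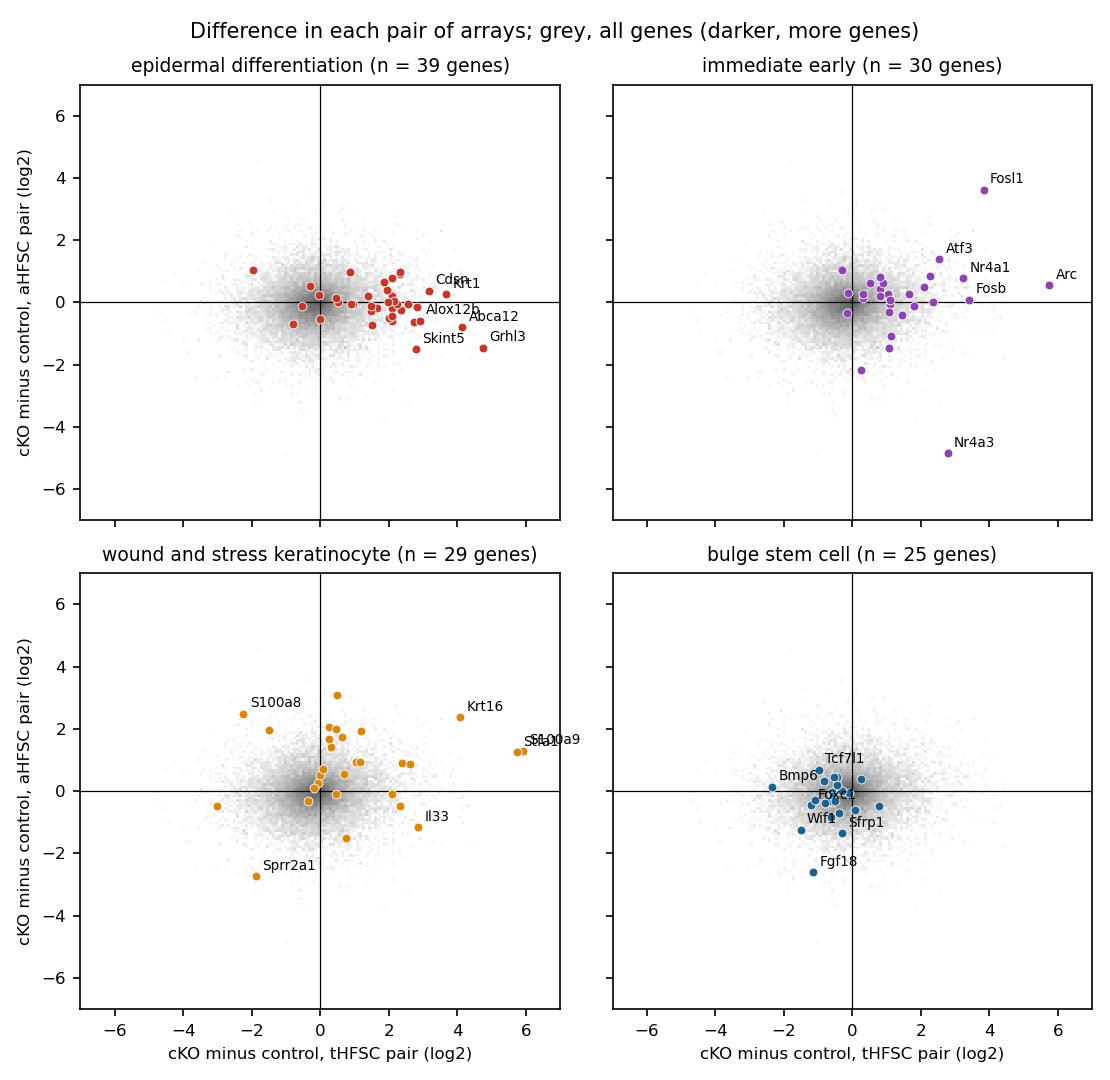
Log2 difference of cKO minus control in the tHFSC pair (horizontal) against the aHFSC pair (vertical), with all 30144 genes in grey and the members of 4 gene lists as coloured points. The 39 differentiation genes lie mostly to the right of 0 and along the horizontal axis (medians 2.0 and -0.058), the 30 immediate early genes spread to the upper right (1.09 and 0.27), the 29 wound genes lie mostly above 0 in the aHFSC pair (median 0.91), and the 25 bulge genes cluster at the lower left (-0.57 and -0.30).

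The early differentiation keratins show the pattern. Krt1, the keratin that marks the first suprabasal layer, stood at 1.25 and 4.52 in the control and 4.92 and 4.79 in the cKO (difference 1.97 ± 0.76, unadjusted p under 0.05). Both cKO arrays were above both control arrays, and control tHFSC was the lowest of the 8 young HFSC arrays, with the others at 3.38 and 5.21 in the aPKC cKO and 4.59 and 6.38 in hCOL17A1 mice. Its partner Krt10 stood at 3.41 and 4.25 in the control and 5.51 and 4.44 in the cKO, with the cKO tHFSC array the highest of the 4. Krtdap, a secreted differentiation protein, stood at 6.07 and 6.27 in the control and 7.46 and 6.49 in the cKO. Neither Krt10 nor Krtdap overlapped between genotypes, although the cKO and control aHFSC arrays were close.

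Of the genes of cell adhesion and barrier lipids, Cdsn, Elovl4, Alox12b, Aloxe3 and Abca12 stood highest in cKO tHFSC among the 4 arrays. Cdsn, the corneodesmosome protein that holds corneocytes together, stood at 0.81 and 1.47 in the control and 3.98 and 1.85 in the cKO. Elovl4, which makes the very long fatty acids of barrier ceramides, stood at 4.21 and 5.03 in the control and 6.54 and 5.95 in the cKO (difference 1.62 ± 0.48, unadjusted p under 0.05). For both genes the cKO tHFSC array was the highest and the control tHFSC array the lowest of the 4, and both cKO arrays were above both control arrays. The lipoxygenase genes of the barrier stood at 0.006 and 1.52 in the control and 2.9 and 0.93 in the cKO for Alox12b and at -0.43 and 0.50 in the control and 2.38 and 0.34 in the cKO for Aloxe3. Abca12, the lipid transporter of lamellar granules, stood at -2.98 and -1.45 in the control and 1.18 and -2.24 in the cKO. In these 3 genes cKO aHFSC was below control aHFSC, so the pairs ran in opposite directions.

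Proteases, inhibitors and regulators were also apart in tHFSC. The kallikrein protease genes stood at 2.35 and 2.0 in the control and 3.82 and 1.89 in the cKO for Klk5 and at 2.55 and 4.07 in the control and 4.54 and 3.58 in the cKO for Klk7. Spink5, the inhibitor of those proteases, stood at 1.75 and 1.24 in the control and 3.62 and 1.89 in the cKO (difference 1.26 ± 0.35, unadjusted p under 0.05). Both cKO levels of Spink5 were above both control levels, and for Klk5 and Klk7 the aHFSC pair ran the other way. Grhl3, a transcription factor of terminal differentiation, stood at -4.34 and -0.28 in the control and 0.42 and -1.73 in the cKO, and its control tHFSC probe was not well above background. Lypd3, a GPI-anchored protein of suprabasal cells, stood at 0.76 and 1.05 in the control and 3.1 and 2.03 in the cKO (difference 1.66 ± 0.45, unadjusted p under 0.05).

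Not every member was higher. Calml3, a calmodulin-like protein of keratinocytes, stood at 6.23 and 5.7 in the control and 5.44 and 5.01 in the cKO, with both cKO arrays below both control arrays (difference -0.74 ± 0.099, unadjusted p under 0.05). The late filament-aggregating gene Flg stood at 2.2 and 6.41 in the control and 4.56 and 6.18 in the cKO, where cell state set the arrays further apart than genotype did. Krt2 stood at -1.23 and -1.41 in the control and -1.77 and -1.53 in the cKO, with both cKO levels below both control levels, and Tgm3 at 2.75 and 2.43 in the control and 2.7 and 2.67 in the cKO.

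The difference between cell states was itself fitted, as the cKO's aHFSC-minus-tHFSC shift against the mean shift of the 3 other young conditions. A time after plucking is given for the control and Col17a1 cKO aHFSC only. No gene passed (0 percent at an adjusted p of 0.05, smallest adjusted p 1). At an unadjusted limma p under 0.05 there were 1448 genes in either direction (4.8 percent), and the cKO shift was lower than the others for 632 of all genes (2.1 percent) and for 25 of the 39 differentiation genes. The median shift of the list was 0.66 in the control, 1.0 in the aPKC cKO and 0.51 in hCOL17A1 mice, against -1.07 in the Col17a1 cKO. The cKO shift was the lowest of the 4 conditions for 33 members, where it was for 20.3 percent of all genes. Among these 25 members the shift of Cdsn was lower than the mean of the others by 3.08 ± 0.42 (SE), that of Klk7 by 2.28 ± 0.31 and that of Krt10 by 1.97 ± 0.30.

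The count of 25 moved with the arrays in the fit. It was 23 without either control array, 18 without either hCOL17A1 array, 9 in a fit of 12 HFSC arrays that added the aged mice (1.21 percent of all genes) and 6 in a fit of all 16 arrays (1.16 percent). Where the cKO was set against the control alone, a comparison added after the data were seen, it was 15 (2.23 percent of all genes). Among the 4 young tHFSC arrays the cKO was the highest for 30 members (15.8 percent of all genes) and the control the lowest for 20 (22.9 percent). The fitted median of the list over both pairs was 0.93, and -0.11 without the cKO tHFSC array. Among the 4 young aHFSC arrays the cKO was the highest for 0 members (19.7 percent of all genes) and the lowest for 16 (28.5 percent).

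**Figure D2:**
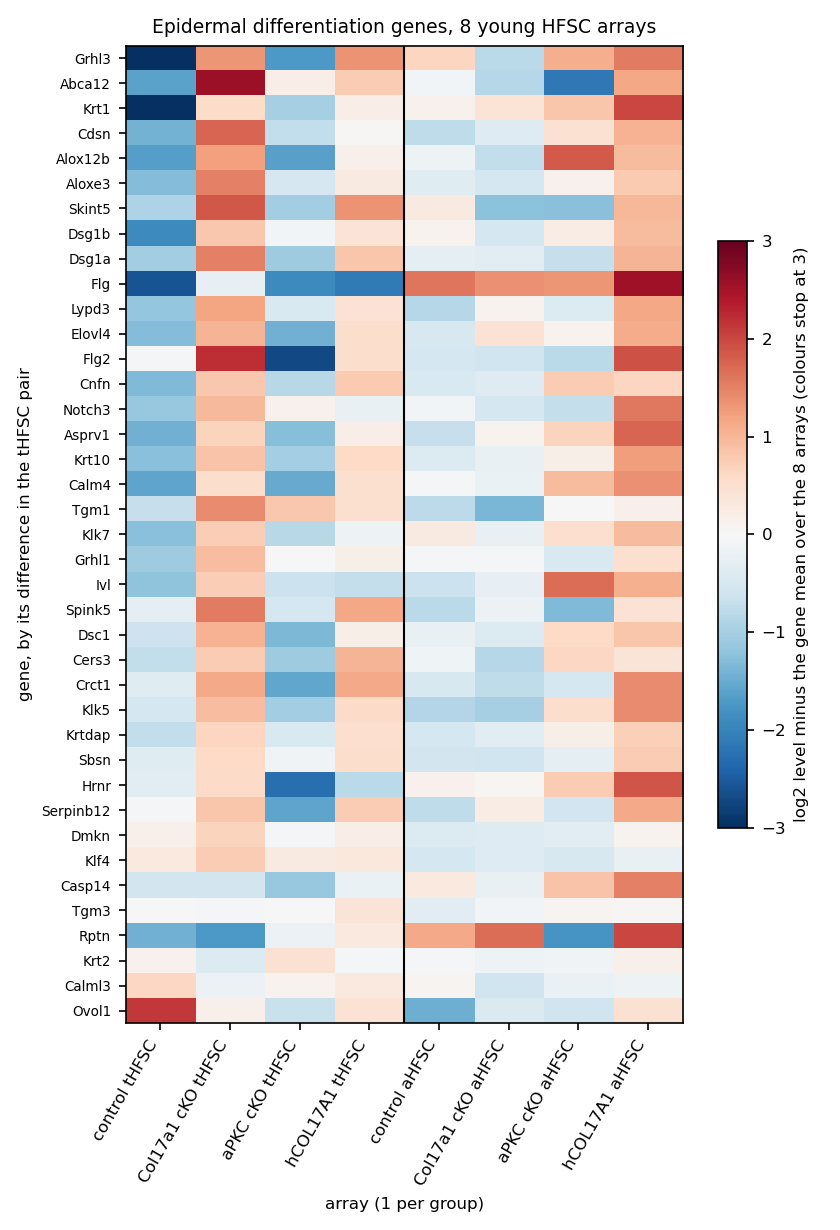
Level of each of the 39 differentiation genes on the 8 young HFSC arrays, as log2 minus the gene's mean over those arrays (red above, blue below, colours stop at 3 log2 units), ordered by the difference in the tHFSC pair. The cKO tHFSC column is red for most genes and the highest of the 4 tHFSC columns for 30, the control tHFSC column is blue for most, and the aHFSC columns of both genotypes are paler.

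Among markers of other cells that such a sort could hold, the basal epidermis, Langerhans and myeloid, T cell and red cell lists had medians above 0 in the tHFSC pair. The melanocyte, fibroblast, endothelial, Merkel cell, neutrophil and muscle lists had medians below 0 there (-0.39, -0.22, -0.43, -0.34, -0.050 and -0.017). Ly6a encodes Sca-1, the antigen that the gate excludes, and stood at -1.67 and -2.92 in the control and 1.02 and -1.27 in the cKO (difference 2.17 ± 0.68, unadjusted p under 0.05). The genotypes did not overlap. On the interfollicular epidermis arrays of the series, sorted as ScaI(Hi) cells, it stood between 3.28 and 4.23, so all 4 HFSC arrays were below those. Ly6d, another surface antigen of the epidermis, stood at -0.21 and 1.65 in the control and 2.9 and 1.99 in the cKO (difference 1.73 ± 0.66, unadjusted p under 0.05). Of 14 basal epidermis genes, 7 were higher in both pairs and 2 lower (20.1 and 33.4 percent of all genes). Their signals summed to 10.1 and 9.97 in the control and 10.2 and 10.1 in the cKO, as log2. Such a sum follows the brightest probes of a list and says little of the dimmer members. Krt14 stood at 7.9 and 8.23 in the control and 8.31 and 8.6 in the cKO (difference 0.39 ± 0.083, unadjusted p under 0.05) and Krt5 at 8.36 and 8.25 in the control and 8.36 and 8.2 in the cKO. The cKO was above the control in both pairs for Krt14, and the Krt5 arrays lay close together. The metallothionein genes of the list, Mt1 and Mt2 (filled), stood at differences of 0.51 ± 0.16 and 0.70 ± 0.20. In sorted bulk RNA, fewer cells of a type and less RNA per cell cannot be told apart.

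Langerhans and myeloid markers more often stood higher than lower in the cKO. Of 18 Langerhans and myeloid markers, 14 of them well above background on all 4 arrays, 10 were higher in both pairs and 3 lower (20.1 and 33.4 percent of all genes), with medians of 1.02 in the tHFSC pair and 0.11 in the aHFSC pair. Their summed log2 level was 5.15 and 5.28 in the control and 5.81 and 5.23 in the cKO. The MHC class II gene H2-Eb1 stood at -3.05 and -2.58 in the control and 0.089 and -1.02 in the cKO (difference 2.35 ± 0.76, unadjusted p under 0.05), and the invariant chain gene Cd74 at -2.1 and 0.23 in the control and 2.27 and 0.54 in the cKO. Both genes were higher in both cKO arrays than in both control arrays. Cd207, the langerin gene that defines Langerhans cells, stood at -3.46 and -3.54 in the control and -2.36 and -3.67 in the cKO, with only the cKO tHFSC array of the 4 apart. Ptprc, the pan-leukocyte gene, was lower in the cKO at -0.69 and -0.88 in the control and -1.56 and -1.51 in the cKO (difference -0.75 ± 0.26, unadjusted p under 0.05), as was Lyz2, the macrophage lysozyme gene, at -3.26 and -3.53 in the control and -5.41 and -4.14 in the cKO.

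Of 13 T cell markers, 11 of them well above background on all 4 arrays, 8 were higher in both pairs and 1 lower (20.1 and 33.4 percent of all genes), with medians of 0.83 and 0.16 and a summed log2 level of 3.42 and 3.66 in the control and 4.15 and 3.72 in the cKO. The T cell receptor subunit gene Cd3e stood at -0.28 and -0.62 in the control and 0.46 and 0.51 in the cKO (difference 0.93 ± 0.33, unadjusted p under 0.05), with no overlap between genotypes. Cd2 was not well above background on either control array, nor was Cd8a (filled) on the control aHFSC array. The 4 red cell genes summed to 2.77 and 3.4 in the control and 4.01 and 1.43 in the cKO, and the haemoglobin gene Hba-a1 stood at 2.29 and 2.48 in the control and 3.03 and 0.40 in the cKO, lowest in cKO aHFSC. The part of these cells in the results on differentiation genes and on other lists was not tested.

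Most wound and stress keratinocyte genes stood higher in the cKO in both cell states. Of 29 measured members 16 were higher in both pairs and 3 lower (20.1 and 33.4 percent of all genes), with medians of 0.50 in the tHFSC pair and 0.91 in the aHFSC pair. At an unadjusted limma p under 0.05, 5 were higher and 1 lower, where 2.07 and 3.11 percent of all genes were. The fitted median of the list over both pairs was 0.92. It was 0.97 without the control tHFSC array and 0.72 without the control aHFSC array. Krt16, a keratin of wound-edge and stressed epidermis, stood at -2.81 and 2.19 in the control and 1.28 and 4.56 in the cKO (difference 3.23 ± 0.99, unadjusted p under 0.05). Control tHFSC was the lowest of the 8 young HFSC arrays and cKO aHFSC the highest, and the cKO tHFSC level lay below that of control aHFSC. The related keratins Krt6a and Krt6b stood at 1.67 and 1.07 in the control and 1.94 and 3.12 in the cKO and at 3.6 and 3.89 in the control and 3.91 and 5.31 in the cKO, where cKO aHFSC was the highest of the 8 arrays for each and the genotypes did not overlap.

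The calprotectin gene S100a9 stood at -6.68 and 1.41 in the control and -0.77 and 2.72 in the cKO, with a control tHFSC signal not well above background, so that its difference of 3.61 ± 1.52 is partly measured against background. Its partner S100a8 (filled) stood at -4.59 and -2.19 in the control and -6.83 and 0.31 in the cKO, and its pairs ran in opposite directions. Stfa1, a stefin protease inhibitor, stood at -5.1 and 2.72 in the control and 0.65 and 3.96 in the cKO, again with control tHFSC not well above background. Both calprotectin genes are also made by neutrophils. The neutrophil gene Ly6g was not well above background on either control array and on 1 of the cKO arrays, and the 11 neutrophil markers summed to log2 levels of 8.73 and 8.74 in the control and 8.84 and 8.76 in the cKO. Both calprotectin levels lie far below that sum, which is set by brighter members and could not show a change in the dimmer ones. The part of neutrophils in the result was not tested.

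Ptgs2, Il1b and Gjb6, members of the list with a role in signalling, stood higher in the cKO. Ptgs2, the inducible prostaglandin synthase, stood at -1.66 and -2.09 in the control and -0.45 and -0.15 in the cKO (difference 1.57 ± 0.54, unadjusted p under 0.05). Il1b, an inflammatory cytokine, stood at -3.07 and -2.8 in the control and -2.6 and -0.82 in the cKO (difference 1.22 ± 0.43, unadjusted p under 0.05). Neither gene overlapped between genotypes. Gjb6, the connexin 30 gene, stood at -3.38 and 0.24 in the control and -0.99 and 1.15 in the cKO (difference 1.65 ± 0.44, unadjusted p under 0.05), and here the cKO tHFSC level was below that of control aHFSC. The cornified envelope gene Sprr2a1 went the other way at -3.68 and -4.04 in the control and -5.55 and -6.78 in the cKO. It was not well above background on either cKO array. With those levels raised to the array's lowest signal called well above background, a floor shared by all probes, it was 2.53-fold lower there. Its difference of -2.31 was -0.27 with normexp.

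Of the EGF receptor ligands in the list, Areg, Hbegf, Ereg and Epgn were higher in both pairs and Egf, Tgfa and Btc were not. Amphiregulin, heparin-binding EGF, epiregulin and epigen, the products of the first 4, are shed from the surface of keratinocytes and act on neighbouring cells. Areg stood at -3.86 and -5.52 in the control and -2.0 and -0.89 in the cKO (difference 3.24 ± 0.68). The control aHFSC signal was not well above background, so that this difference is partly measured against background, and it was 1.25 with normexp. The genotypes did not overlap, and the hCOL17A1 arrays were in the range of the cKO, with the other conditions at -3.1 and -3.81 in the aPKC cKO and -0.83 and -1.71 in hCOL17A1 mice. Hbegf stood at -2.39 and 0.72 in the control and 2.81 and 1.95 in the cKO (difference 3.22 ± 0.91, unadjusted p under 0.05), with no overlap. Ereg stood at -2.1 and -1.52 in the control and 0.95 and -1.19 in the cKO and Epgn at -3.49 and -1.45 in the control and -0.12 and -0.64 in the cKO, and for both genes the tHFSC pair was further apart than the aHFSC pair.

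The EGF receptor list as a whole had no common direction. Of 28 measured members 8 were higher in both pairs and 7 lower, against 20.1 and 33.4 percent of all genes. The ligand genes Egf, Tgfa and Btc stood at -1.88 and -3.79 in the control and -4.15 and -3.32 in the cKO, at -4.13 and -3.5 in the control and -4.21 and -4.1 in the cKO and at -3.83 and -4.12 in the control and -2.6 and -6.99 in the cKO. Egf and Btc overlapped between genotypes with pairs of opposite sign, Btc was not well above background on 1 cKO array, and Tgfa was lower in both cKO arrays than in the control of the same state. The receptor gene Egfr (filled) stood at 3.5 and 3.63 in the control and 3.36 and 2.62 in the cKO, lower in cKO than in control in both cell states, and the genes of the shedding proteases had pairs of opposite sign, with Adam10 at 3.59 and 4.18 in the control and 3.65 and 3.92 in the cKO and Adam17 at -0.23 and -0.29 in the control and -0.097 and -0.74 in the cKO. Of the feedback inhibitors, Dusp6 stood at 3.97 and 4.09 in the control and 3.44 and 4.08 in the cKO and Spry2 at -1.14 and -1.31 in the control and -1.44 and -1.54 in the cKO, slightly lower in the cKO of either state. Emp1, a membrane protein induced by growth factors, stood at 5.73 and 5.56 in the control and 6.18 and 5.89 in the cKO, with no overlap (difference 0.39 ± 0.11, unadjusted p under 0.05).

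Promoter sequences are shown for Areg and for the immediate early genes Dusp1 and Zfp36, because these were higher in both cKO arrays than in the control of the same cell state and hold a motif of stimulus-dependent transcription. They were taken from RefSeq (GRCm38.p6, a later build than the mm9 of the probes) and run 5′ to 3′ over the 150 bases before the start of the gene. The capitals mark a cyclic AMP response element (CRE, TGACGTCA) in Areg and Dusp1 and a CArG box, the sequence that serum response factor recognises, in Zfp36. The regions are chr5:91139449-91139598 on the plus strand for Areg, chr17:26508473-26508622 on the minus strand for Dusp1 and chr7:28379229-28379378 on the minus strand for Zfp36.
Areg: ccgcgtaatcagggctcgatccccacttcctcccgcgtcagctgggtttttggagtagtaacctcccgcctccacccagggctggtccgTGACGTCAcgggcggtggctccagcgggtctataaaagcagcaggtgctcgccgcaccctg
Dusp1: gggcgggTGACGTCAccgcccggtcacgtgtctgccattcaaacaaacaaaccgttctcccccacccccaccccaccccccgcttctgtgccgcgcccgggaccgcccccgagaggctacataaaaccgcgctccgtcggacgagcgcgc
Zfp36: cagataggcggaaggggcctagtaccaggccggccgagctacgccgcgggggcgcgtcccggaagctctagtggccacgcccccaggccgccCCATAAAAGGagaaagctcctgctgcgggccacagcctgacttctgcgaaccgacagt
The CRE begins 61 bases before the start in Areg and 143 bases before it in Dusp1, and the CArG box 58 bases before it in Zfp36. Searched on both strands from 250 bases before to 50 after the start, the CRE was in 588 of 32851 promoters (1.79 percent) and the CArG box in 535 (1.63 percent). Of the 30 immediate early genes 24 had a promoter entry. The CRE was in Btg2, Dusp1 and Maff and the CArG box in Egr2, Srf and Zfp36. The AP-1 site (TGANTCA) was in 7.81 percent of all promoters and in 0 of the 24. A match is a string of letters in a window and not a bound site.

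Immediate early genes are transcribed within minutes of a stimulus and encode mostly transcription factors and feedback regulators. In the cKO 18 of 30 were higher in both pairs and 1 lower (20.1 and 33.4 percent of all genes), with medians of 1.09 in the tHFSC pair and 0.27 in the aHFSC pair. Both cKO arrays were above both control arrays for 14 members, where 11.5 percent of all genes had that order. Of the AP-1 subunits, Fos stood at 2.37 and 3.51 in the control and 4.64 and 4.35 in the cKO (difference 1.56 ± 0.55, unadjusted p under 0.05) and Fosb at 2.92 and 5.05 in the control and 6.34 and 5.14 in the cKO. Neither overlapped between genotypes, and control tHFSC was the lowest of the 8 young HFSC arrays for both. Fosl1 (filled), another AP-1 subunit, stood at -4.19 and -4.81 in the control and -0.36 and -1.19 in the cKO, and its probe was not well above background on control aHFSC. Jun stood at 2.22 and 2.75 in the control and 3.26 and 3.01 in the cKO (difference 0.65 ± 0.25, unadjusted p under 0.05), whereas Junb was at -0.23 and -1.89 in the control and -0.57 and -0.83 in the cKO and overlapped.

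Atf3, Zfp36 and Dusp1, which act in stress and feedback, were also higher in both pairs. Atf3, a stress-induced repressor, stood at 0.22 and 0.24 in the control and 2.76 and 1.62 in the cKO (difference 1.96 ± 0.69, unadjusted p under 0.05). Zfp36, which speeds the decay of cytokine mRNA, stood at 2.5 and 3.2 in the control and 4.59 and 3.69 in the cKO (difference 1.29 ± 0.42, unadjusted p under 0.05), and Dusp1, a phosphatase of MAP kinases, at 5.0 and 4.25 in the control and 5.91 and 4.88 in the cKO (difference 0.77 ± 0.28, unadjusted p under 0.05). Atf3 and Zfp36 did not overlap between genotypes, and the Dusp1 level of cKO aHFSC was below that of control tHFSC. The nuclear receptor gene Nr4a1 stood at 0.078 and 1.68 in the control and 3.32 and 2.47 in the cKO, and Myc, the growth regulator, at 1.91 and 1.04 in the control and 2.73 and 1.86 in the cKO (difference 0.82 ± 0.31, unadjusted p under 0.05). Nr4a1 did not overlap, and for Myc the cKO aHFSC level was just below control tHFSC.

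The immediate early result moved with the arrays in the fit. The fitted median of the list over both pairs was 0.58. It was 0.38 without the control tHFSC array and 0.90 without the control aHFSC array. At an unadjusted limma p under 0.05, 8 members were higher and 0 lower, where 2.07 and 3.11 percent of all genes were. Without either hCOL17A1 array 5 were higher, and with the aged arrays in the fit 2 were. Control was the lowest of the 4 young tHFSC arrays for 17 members (22.9 percent of all genes). The cKO lay between the aPKC cKO and hCOL17A1 arrays for 17 (33.2 percent of all genes). For Fos the other arrays stood at 3.7 and 5.03 in the aPKC cKO and 5.04 and 4.42 in hCOL17A1 mice and for Atf3 at 0.48 and 1.64 in the aPKC cKO and 3.8 and 2.25 in hCOL17A1 mice, so the hCOL17A1 tHFSC levels were above those of the cKO. Such genes can also respond to cell dissociation, and the part of the sort was not tested.

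**Figure D3:**
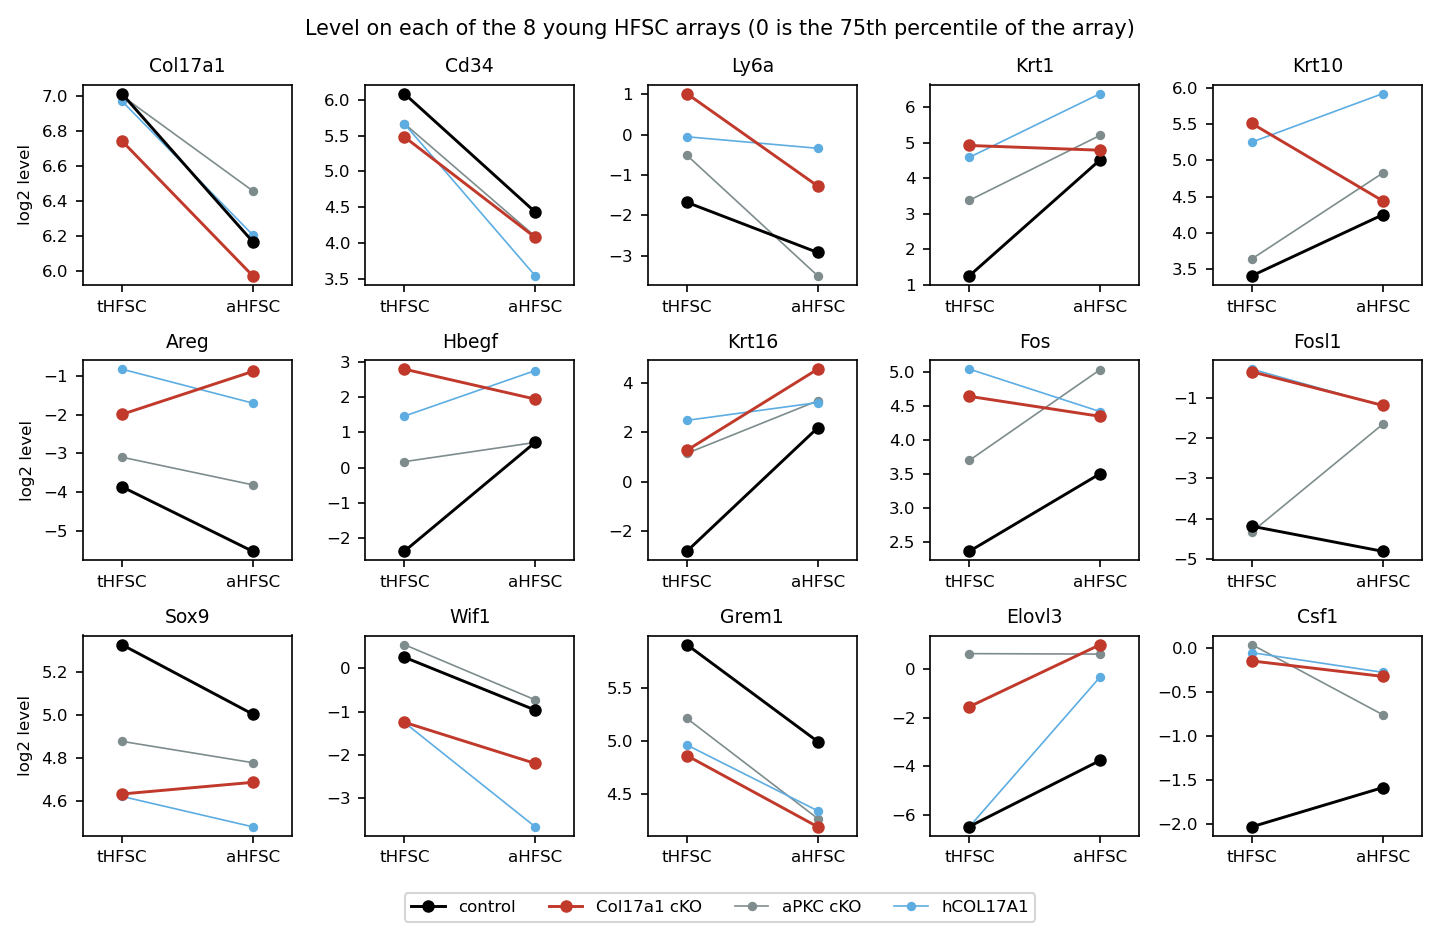
Log2 level of 15 genes on the 8 young HFSC arrays (0 is the 75th percentile of the array), with tHFSC left and aHFSC right in each panel and a line joining the 2 arrays of a condition. Control is black, Col17a1 cKO red, aPKC cKO grey and hCOL17A1 blue. Each point is 1 array with no error. For Krt1, Areg, Hbegf, Fos and Csf1 both red points lie above both black ones, and for Sox9 both lie below.

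Bulge stem cell genes tended to stand lower in the cKO. Of 25 measured members 1 was higher in both pairs and 15 lower (20.1 and 33.4 percent of all genes), with medians of -0.57 in the tHFSC pair and -0.30 in the aHFSC pair. Cd34, the sort antigen of the bulge, stood at 6.09 and 4.43 in the control and 5.48 and 4.08 in the cKO (difference -0.48 ± 0.20), and Krt15 at 6.66 and 6.19 in the control and 6.56 and 6.12 in the cKO. For Cd34 the cell state set the arrays apart by more than the genotype, and the Krt15 pairs were close together. Cells were sorted as CD34(Hi), so a high Cd34 level on all 4 arrays follows in part from the gate. Lgr5 (filled), a marker of cycling follicle stem cells, stood at 3.52 and 3.7 in the control and 3.78 and 4.09 in the cKO, with both cKO levels above both control levels, but by another probe of the gene the sign was the opposite (difference -0.44 over probes held on every array).

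Transcription factor genes of the bulge, Sox9, Foxc1, Lhx2 and Nfatc1 among them, were lower in cKO than in control tHFSC. Sox9, needed for bulge identity, stood at 5.33 and 5.0 in the control and 4.63 and 4.69 in the cKO (difference -0.50 ± 0.14, unadjusted p under 0.05), with both cKO arrays below both control arrays. The other young arrays stood at 4.88 and 4.78 in the aPKC cKO and 4.62 and 4.48 in hCOL17A1 mice, so control was the highest of the 4 conditions in either state. Foxc1, a quiescence factor, stood at 2.17 and 0.95 in the control and 0.97 and 0.50 in the cKO (difference -0.83 ± 0.32, unadjusted p under 0.05), and the cKO tHFSC level was level with control aHFSC. Lhx2 stood at 5.79 and 5.53 in the control and 5.23 and 5.5 in the cKO and Nfatc1 at 5.83 and 5.42 in the control and 5.25 and 5.4 in the cKO, where only the tHFSC pair was apart.

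The list also holds genes of secreted factors. Wif1, which binds Wnt ligands, stood at 0.26 and -0.97 in the control and -1.25 and -2.2 in the cKO (difference -1.37 ± 0.42, unadjusted p under 0.05), with no overlap. Sfrp1 (filled), another Wnt antagonist, stood at 1.9 and 3.36 in the control and 1.59 and 2.01 in the cKO (difference -0.83 ± 0.31, unadjusted p under 0.05). Fgf18, a growth factor of the resting bulge, stood at 4.24 and 0.22 in the control and 3.1 and -2.38 in the cKO, with cell state as the wider gap. In the list 4 members were lower at an unadjusted limma p under 0.05, where 3.11 percent of all genes were. The fitted median of the list over both pairs was -0.37, and -0.22 without the control tHFSC array. Control was the highest of the 4 young tHFSC arrays for 18 of the 25 (26.8 percent of all genes). The cKO lay between the other conditions for 16 (33.2 percent of all genes).

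Of 28 BMP and TGF-beta genes 5 were higher in both pairs and 9 lower, near the shares of all genes (20.1 and 33.4 percent). BMP signals hold bulge cells at rest, and Grem1 encodes a secreted BMP antagonist. Grem1 (filled) stood at 5.91 and 5.0 in the control and 4.86 and 4.19 in the cKO (difference -0.93 ± 0.14, unadjusted p under 0.05). Both cKO arrays were below both control arrays, and control was the highest condition in either state, with the others at 5.22 and 4.27 in the aPKC cKO and 4.96 and 4.34 in hCOL17A1 mice. The BMP target genes Id1 and Id2 stood at 3.42 and 2.59 in the control and 2.85 and 2.27 in the cKO and at 2.06 and 0.35 in the control and 1.31 and 0.21 in the cKO, with cell state as the wider gap, and the ligand genes Bmp4 (filled) and Bmp6 at -1.37 and -1.18 in the control and 1.76 and -1.66 in the cKO and at 1.31 and -0.15 in the control and -1.03 and -0.010 in the cKO, each with pairs of opposite sign.

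Among 32 Wnt genes 9 were higher in both pairs and 8 lower, against 20.1 and 33.4 percent of all genes. Apcdd1, a membrane inhibitor of Wnt signalling, stood at -2.64 and -2.66 in the control and -0.40 and -1.31 in the cKO (difference 1.79 ± 0.34, unadjusted p under 0.05). The cKO was above the control in both states without overlap, and the control's arrays were the lowest 2 of the 8 young HFSC arrays. Fzd1, a Wnt receptor, stood at 3.1 and 2.28 in the control and 2.2 and 1.41 in the cKO (difference -0.89 ± 0.23, unadjusted p under 0.05), and the common Wnt target Axin2 at 0.074 and -0.14 in the control and 0.67 and -0.050 in the cKO. Ccnd1, the cyclin D1 gene, stood at 3.16 and 3.18 in the control and 2.47 and 2.72 in the cKO (difference -0.58 ± 0.22, unadjusted p under 0.05), lower in cKO without overlap. Of 17 Notch genes 6 were higher in both pairs and 3 lower (20.1 and 33.4 percent of all genes). The Notch ligand genes ran in opposite directions, with Jag1 (filled) at 2.78 and 2.95 in the control and 3.66 and 3.25 in the cKO and Jag2 at 1.86 and 1.8 in the control and 1.39 and 1.14 in the cKO. Neither ligand overlapped between genotypes.

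Genes of the upper follicle and sebaceous gland more often stood higher than lower in the cKO. Of 18 members of the upper follicle and sebaceous gland list 9 were higher in both pairs and 2 lower, against 20.1 and 33.4 percent of all genes. Elovl3, a fatty acid elongase of sebocytes, stood at -6.5 and -3.76 in the control and -1.54 and 1.03 in the cKO (difference 4.87 ± 1.39, unadjusted p under 0.05). Both cKO arrays were above both control arrays, but the control tHFSC signal was not well above background and the other young arrays ranged as widely, at 0.65 and 0.63 in the aPKC cKO and -6.51 and -0.31 in hCOL17A1 mice. Scd1, a fatty acid desaturase, stood at 1.83 and 3.33 in the control and 3.9 and 4.75 in the cKO (difference 1.74 ± 0.63, unadjusted p under 0.05), without overlap. The upper follicle markers Lrig1 and Plet1 stood at 2.68 and 3.41 in the control and 2.23 and 3.19 in the cKO and at 2.95 and 3.32 in the control and 3.71 and 3.5 in the cKO, with Lrig1 lower and Plet1 higher in both cKO arrays than in the control of the same state. Pparg, the regulator of sebocyte differentiation, stood at -0.52 and -1.5 in the control and -1.88 and -0.079 in the cKO, where the pairs ran in opposite directions. The summed log2 level of the list was 6.17 and 6.71 in the control and 6.87 and 6.99 in the cKO, and the share of sebaceous cells was not tested.

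Melanocyte markers tended to stand lower in the cKO. Of 11 measured, 7 of them well above background on all 4 arrays, 1 was higher in both pairs and 6 lower (20.1 and 33.4 percent of all genes), with medians of -0.39 and -0.91 and a summed log2 level of 2.52 and 2.49 in the control and 2.05 and 1.63 in the cKO. The fitted median over both pairs was -0.54, against -0.29 after quantile normalization, -0.14 over probes well above background on all 8 arrays and -0.050 with normexp. Without the control aHFSC array it was -0.13 and without the control tHFSC array -0.99. Pmel, the pigment granule matrix gene, stood at -1.2 and 1.4 in the control and -2.0 and -1.9 in the cKO (difference -2.04 ± 0.73, unadjusted p under 0.05), and Dct, a melanin synthesis enzyme, at -0.10 and -0.54 in the control and -1.64 and -1.7 in the cKO. Neither overlapped, but the aPKC cKO arrays were lower still, with Pmel at -3.03 and -2.87 in the aPKC cKO and -1.41 and -1.52 in hCOL17A1 mice. The number of melanocytes among the sorted cells was not tested. Slc45a2, a transporter of pigment granules, was not well above background on either cKO array and on 1 of the control arrays. By the floor described for Sprr2a1 it was 1.5-fold lower in the cKO. Mitf and Sox10, which define the lineage, stood at 1.57 and -0.29 in the control and 1.23 and 0.25 in the cKO and at -2.2 and -2.15 in the control and -1.85 and -1.88 in the cKO, so the 2 did not share the direction of the pigment genes. Among fibroblast genes, Col1a2 stood at 2.71 and 0.48 in the control and 0.79 and -1.27 in the cKO (difference -1.83 ± 0.40, unadjusted p under 0.05), and Col3a1 at -2.22 and -2.42 in the control and -3.18 and -2.72 in the cKO. Sparc (filled) stood at 3.66 and 3.07 in the control and 3.59 and 3.34 in the cKO, with pairs of opposite sign, and 1 of 12 measured members was higher in both pairs and 3 lower (20.1 and 33.4 percent of all genes). Col1a1 was not well above background on either control array.

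Cell cycle genes stood higher in aHFSC than in tHFSC in both genotypes. Their median aHFSC-minus-tHFSC shift was 1.72 in the control and 2.28 in the cKO. Of 41 members 9 were higher in the cKO in both pairs and 21 lower (20.1 and 33.4 percent of all genes), with medians of -0.17 and -0.15 beside -0.13 and -0.045 for all genes, and 0 had an unadjusted limma p under 0.05. Mki67, the proliferation marker, stood at 2.45 and 4.31 in the control and 1.22 and 4.31 in the cKO, lower in cKO in tHFSC and alike in aHFSC.

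Of 20 p53 and senescence genes 10 were higher in both pairs and 0 lower, against 20.1 and 33.4 percent of all genes. Cdkn2b, the p15 inhibitor of cyclin D kinases, stood at -3.69 and -3.86 in the control and -0.70 and -0.51 in the cKO (difference 3.17 ± 1.15, unadjusted p under 0.05), without overlap. Cdkn1a, the p21 gene, stood at -2.47 and -0.39 in the control and 1.3 and -0.60 in the cKO, and only the tHFSC pair was apart. Its difference of 1.78 was 0.47 with the mean of its probes. Cdkn2a (filled), the p16 gene, stood at -3.91 and -3.87 in the control and -4.25 and -3.46 in the cKO, with pairs of opposite sign. Of 18 genes of the unfolded protein and integrated stress responses 11 were higher in both pairs and 1 lower (20.1 and 33.4 percent of all genes). Trib3, a pseudokinase induced by amino acid stress, stood at -3.26 and -1.94 in the control and 1.1 and -0.96 in the cKO (difference 2.66 ± 0.80, unadjusted p under 0.05), and the cKO tHFSC array was the highest of the 8 young HFSC arrays. The chaperone gene Hspa5 stood at 3.47 and 3.99 in the control and 4.09 and 3.76 in the cKO.

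Chemokine and cytokine genes more often stood higher than lower. Of 21 measured 11 were higher in both pairs and 3 lower, against 20.1 and 33.4 percent of all genes. Csf1, the macrophage growth factor, stood at -2.03 and -1.59 in the control and -0.15 and -0.33 in the cKO (difference 1.57 ± 0.36, unadjusted p under 0.05), without overlap. With the mean of the gene's probes the difference was 0.28. The aPKC cKO and hCOL17A1 arrays were level with the cKO, at 0.034 and -0.76 in the aPKC cKO and -0.057 and -0.28 in hCOL17A1 mice. Cxcl16 stood at 1.36 and 0.14 in the control and 2.25 and 0.82 in the cKO and Il18 at -3.38 and -5.08 in the control and -1.28 and -3.29 in the cKO, each higher in cKO in both cell states.

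Cell polarity genes, which direct the division plane, were split, with 7 of 26 higher in both pairs and 7 lower (20.1 and 33.4 percent of all genes). The atypical protein kinase C genes stood at 4.25 and 4.37 in the control and 4.39 and 4.0 in the cKO for Prkci and at -0.95 and -2.6 in the control and -1.45 and -2.5 in the cKO for Prkcz, and neither had the same sign in both pairs. Patj, a scaffold of the Crumbs complex, stood at 1.5 and 0.74 in the control and 0.80 and -0.62 in the cKO (difference -1.03 ± 0.27, unadjusted p under 0.05, and -0.47 with the mean of its probes), and Scrib (filled), a basolateral scaffold, at 0.000 and 0.052 in the control and 1.01 and 0.58 in the cKO (difference 0.77 ± 0.26, unadjusted p under 0.05). Llgl2, its partner in the basolateral group, stood at -2.27 and -2.03 in the control and -0.79 and -1.52 in the cKO (difference 1.0 ± 0.35, unadjusted p under 0.05), and the hCOL17A1 arrays were higher still, at -1.77 and -1.67 in the aPKC cKO and 1.1 and 0.57 in hCOL17A1 mice. The spindle orientation genes Numa1 and Gpsm2 were lower in cKO in both states, at 3.93 and 3.55 in the control and 3.39 and 3.48 in the cKO and at 1.73 and 1.91 in the control and 1.27 and 1.54 in the cKO.

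Cell junction genes were higher more often than lower, with 10 of 27 higher in both pairs and 1 lower (20.1 and 33.4 percent of all genes). The desmosome genes Pkp1 and Dsc3 stood at 4.37 and 5.16 in the control and 5.67 and 5.53 in the cKO and at 4.96 and 4.85 in the control and 5.71 and 5.1 in the cKO, with differences of 0.84 ± 0.22 (unadjusted p under 0.05) and 0.50 ± 0.17 (unadjusted p under 0.05). Neither overlapped. The tight junction gene Ocln stood at -2.02 and -2.46 in the control and -0.94 and -1.67 in the cKO (difference 0.93 ± 0.33, unadjusted p under 0.05). The cadherin genes Cdh1 and Cdh3 stood at 0.81 and 0.37 in the control and 0.92 and 0.22 in the cKO and at 3.9 and 4.12 in the control and 3.8 and 4.31 in the cKO, with pairs of opposite sign.

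**Figure D4:**
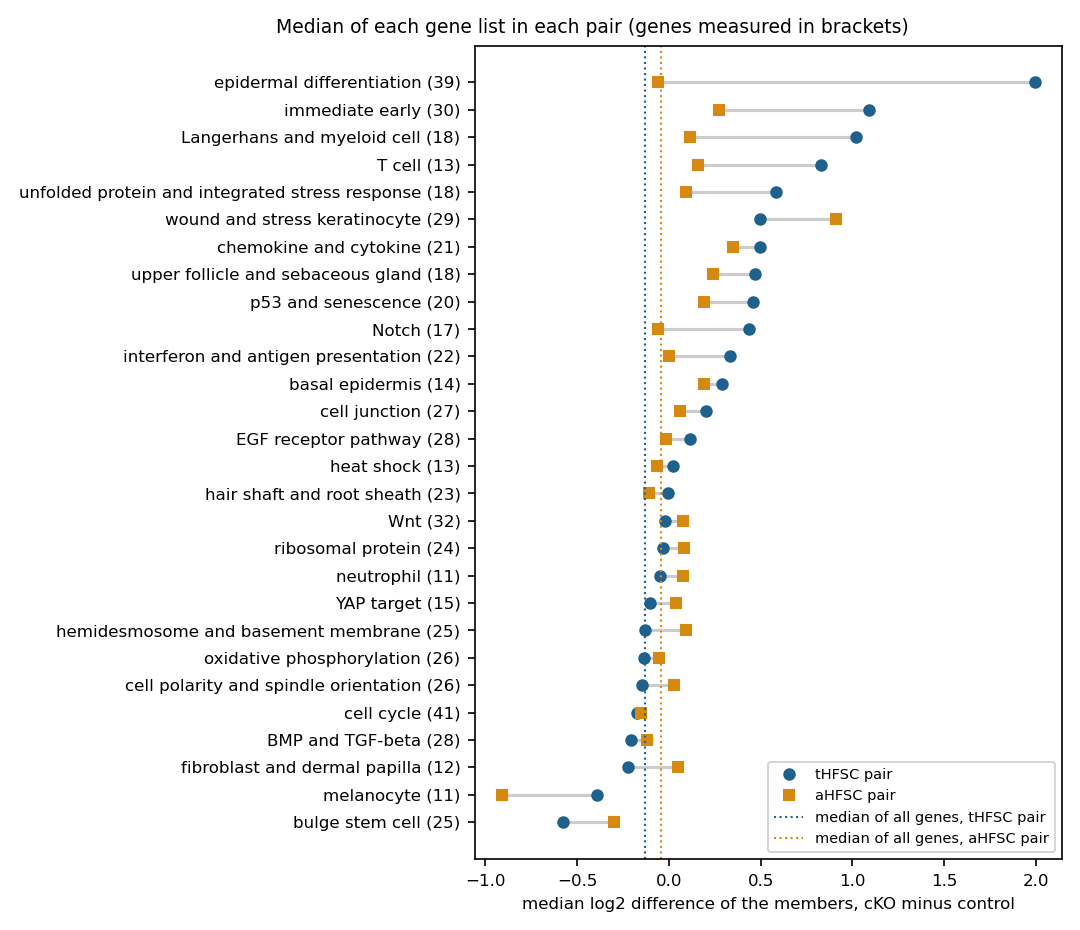
Median log2 difference (cKO minus control, horizontal axis) of the members of each gene list with at least 10 measured genes, in the tHFSC pair (blue circles) and the aHFSC pair (orange squares), with the number of genes in brackets and the medians of all genes as dotted lines (-0.13 and -0.045). The differentiation list has the widest gap (2.0 against -0.058), the wound list is the highest in the aHFSC pair (0.91), and the melanocyte and bulge lists lie lowest.

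Genes were also chosen without a list, as those at least 2-fold apart in the same direction in both pairs, well above background on both arrays of the higher group, with the smallest p. An official gene symbol was also required. A filled probe has no background flag on control tHFSC, so filled genes could be among the higher genes but not the lower. Of all genes 492 were at least 2-fold higher in both pairs (1.63 percent) and 682 at least 2-fold lower (2.26 percent), and 345 and 334 of them were eligible. The rule used these differences, so they are given as a description. The first of the higher genes was Nudt8, a nudix hydrolase (probe on mm9 chromosome 19, 4001681 to 4001830), at -2.69 and -2.4 in the control and 0.048 and 0.21 in the cKO (difference 2.67 ± 0.24). Il22ra2, a soluble decoy receptor for interleukin 22, stood at -3.14 and -4.44 in the control and 2.05 and -0.32 in the cKO and Aif1l, an actin-bundling protein, at -4.15 and -3.04 in the control and -0.34 and -0.52 in the cKO. Both were far apart between genotypes, but the hCOL17A1 arrays were as high as the cKO, with Aif1l at -3.98 and -3.53 in the aPKC cKO and 0.98 and 1.38 in hCOL17A1 mice. Dhrs9 (filled), a retinol dehydrogenase, stood at -2.97 and -2.62 in the control and -0.80 and -0.39 in the cKO, with the other arrays at -3.33 and -3.16 in the aPKC cKO and -3.3 and -3.51 in hCOL17A1 mice, so that the cKO was the highest condition. The serine protease gene Tmprss11g and the collagen gene Col10a1 were too dim on both control arrays to be well above background. By the floor described for Sprr2a1, the cKO level of Tmprss11g was 4.09-fold higher and that of Col10a1 3.94-fold higher. With normexp their log2 differences were 0.59 and 0.49.

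The remaining higher genes were Prorp (filled), Slu7, Slc30a6, Ces2f (filled), Kcnj16 and P3h3, at differences between 1.77 and 2.92. The lowest of these was that of Prorp, which rests on a filled probe and was 0.36 over probes held on every array and 0.27 with normexp. The first of the lower genes was Arl5c, an ARF-like GTPase (probe on mm9 chromosome 11, 97850952 to 97851011), at -1.46 and -1.13 in the control and -5.41 and -5.05 in the cKO. Its probe was not well above background on either cKO array. By the floor described for Sprr2a1 it was 14.6-fold lower there, and its log2 difference was -1.31 with normexp. The other young arrays were also dim, at -4.85 and -5.11 in the aPKC cKO and -4.35 and -3.93 in hCOL17A1 mice. P2ry6, a nucleotide receptor, was 8.69-fold lower by the same floor, and its log2 difference was -0.90 with normexp. It stood at -2.05 and -2.1 in the control and -5.9 and -5.8 in the cKO, with the others at -5.47 and -5.18 in the aPKC cKO and -5.2 and -5.71 in hCOL17A1 mice. Both genes were thus high in the control alone. Grb10, an adaptor of insulin signalling, stood at -0.81 and -1.79 in the control and -3.75 and -3.5 in the cKO, and Mmp11, a stromal metalloproteinase, at -1.29 and -1.55 in the control and -3.25 and -3.47 in the cKO. The carotenoid oxygenase gene Bco1 was 2.11-fold lower in the cKO by the same floor, and its log2 difference was -0.25 with normexp. The other conditions were near the control, at -4.13 and -4.02 in the aPKC cKO and -4.75 and -4.11 in hCOL17A1 mice. Lca5, Kcnd3, Slc35d2, Bst1, Fkbp1b, Strc and Rsl1 stood at differences between -3.04 and -1.65. With the mean of probes that of Slc35d2 was 0.012, Bst1 -1.09, Lca5 -1.4, Kcnd3 -1.03 and Fkbp1b -2.61, while Strc and Rsl1 were unchanged. With normexp these differences lay between -1.39 and -0.72.

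The other young conditions place both genotypes, and each stood apart for part of the genes. Of the 492 genes at least 2-fold higher, the control's 2 arrays were the lowest of the 8 young HFSC arrays for 121 (24.6 percent, against 3.17 percent of all genes), and the cKO's 2 arrays the highest for 111 (22.6 percent, against 1.43 percent). Of the 682 lower genes the control's arrays were the highest for 162 (23.8 percent, against 3.21 percent of all genes) and the cKO's the lowest for 246 (36.1 percent, against 8.35 percent). Among the 12 lower genes of the rule the control was the highest for 8 and the cKO the lowest for 6, and among the 12 higher ones the control was the lowest for 6 and the cKO the highest for 6. These shares follow in part from the choice of genes and carry no test.

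**Figure D5:**
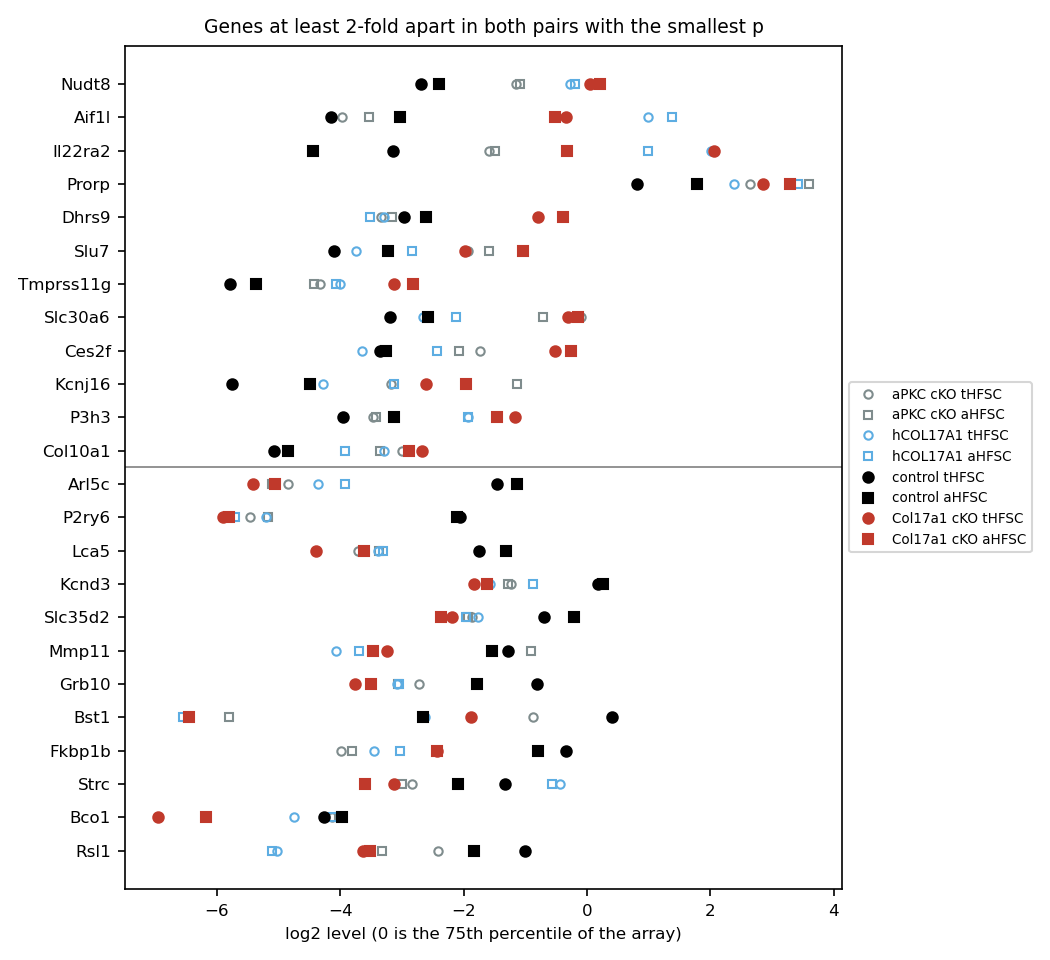
Log2 level (horizontal axis, 0 is the 75th percentile of the array) of the 12 higher and 12 lower genes chosen by the rule, with control in black, Col17a1 cKO in red and the other young conditions as open symbols, circles for tHFSC and squares for aHFSC. Each symbol is 1 array. Open symbols lie near red for Arl5c and P2ry6 and between black and red for Nudt8, Kcnd3 and Grb10.

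The cell-state term ranked further single genes, which it also selected. Cryge, a lens crystallin gene, stood at -6.64 and -4.24 in the control and -6.86 and 6.61 in the cKO, and only the cKO aHFSC array was high. Nrp2 (filled), a semaphorin receptor, stood at 0.76 and 1.14 in the control and -4.2 and 2.74 in the cKO, lowest in cKO tHFSC. The state term of Nrp2 was 7.13, but 4.75 with the mean of its probes and 1.36 with normexp, which left out the filled probe. Cd164l2, Thap6, Uroc1, Zscan25 (filled), Samd14 and Clip2 also had a higher shift in the cKO. In the other direction were Lce1l, a late cornified envelope gene, at -2.31 and 0.60 in the control and 1.74 and -0.26 in the cKO, and Il1r2, the decoy receptor for interleukin 1, at -5.39 and -1.79 in the control and -0.95 and -1.15 in the cKO. Mt4 (filled), the metallothionein of stratified epithelia, stood at -0.50 and 1.3 in the control and 2.89 and 1.48 in the cKO. In these 3 genes the tHFSC pair was further apart than the aHFSC pair. Sod3, Agpat4, Gdpd2 (filled), C530044C16Rik and A930005H10Rik (filled) completed the lower 8. With normexp the state term of Sod3 was -1.89 against -8.32 and that of Clip2 1.24 against 5.74. That of Agpat4 was -2.19 against -2.17. No gene of this ranking passed (adjusted p = 1), and the smallest adjusted p of the state term over the alternatives was 0.067, with all 16 arrays in the fit.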

How the data were processed

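RNA was amplified with the Ovation Pico WTA System V2, labelled with Cy3 and hybridised to 1-colour Agilent arrays, per the labels' protocols. The authors deposited scanner intensity values for each array, extracted with Feature Extraction 11.5.1.1 on an mm9 design per the file headers, and a table of log2 values, which equals the log2 processed signal minus the array's 75th percentile. Here the same scaling was applied to the scanner intensities, and the table supplied only the probes that the scanner file of the control tHFSC array lacks. A probe was kept if 2 or more of the 8 young HFSC arrays had it well above background, and the brightest probe stood for a gene. Genes were named through RefSeq accessions where the table held them. limma 3.58.1 (R 4.3.3) fitted condition and cell state to the 8 arrays with an intensity trend, which leaves 3 residual degrees of freedom, and the state term leaves 2. Tests were two-sided with Benjamini-Hochberg adjustment, and the code was tested on simulated data. With 2 arrays against 2, an exact permutation test cannot go below 0.333, so none was used. The number of arrays limits the precision.

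The members and the 32 gene lists were chosen with earlier results of these data known. Named genes are the 12 higher and 12 lower with the smallest p among those at least 2-fold apart in both pairs, list members by smallest p or by role, and the 8 genes at each end of the state term. Those chosen without a list had an official symbol, and the 12 lower could not include a filled gene. Alternatives covered background correction, normalization, the probe filter and choice, the arrays in the fit, the cell-state term, the trend and each array left out.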

Additional observations from a re-analysis of the deposited data

How the results depend on the processing

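No gene passed an adjusted p of 0.05 under any of 20 alternatives, where the smallest adjusted p was 0.213 for the genotype difference and 0.067 for the state term, the latter with all 16 arrays in the fit. Direct comparison of the pairs, added after the data were seen, gave 1301 genes at an unadjusted limma p under 0.05. The Col17a1 difference stayed below 0 throughout, between -0.31 and -0.16. Of 127 values of single genes 12 changed sign under some alternative, in 20 of 2302 comparisons, and the cause was not tested. Lgr5 stood at -0.25 with normexp, -0.44 with probes above background on all arrays or held on all, and -0.056 with the mean of probes, where Prkcz stood at 0.006 and Slc35d2 at 0.012. With each array left out in turn, Itga6 ranged from -0.19 to 0.25, Itgb4 from -0.026 to 0.38, Krt5 from -0.084 to 0.034, Prkci from -0.36 to 0.12 and Prkcz from -0.89 to 0.48. Aloxe3 ranged from -0.040 to 2.69, Grhl3 from -0.60 (and -0.23 without the control tHFSC array) to 3.91, Klk7 from -0.39 to 1.9 and Flg from -0.14 to 2.27, each lowest without the cKO tHFSC array. S100a8 ranged from -1.97 (-0.94 without the control aHFSC array) to 2.22. Among 32 list medians, that of the cell cycle ranged from -0.36 to 0.11 and that of neutrophil markers from -0.31 to 0.20 (-0.039 without the control aHFSC array, -0.077 with the mean of probes). Where 1 array is left out, the lone array is assumed to vary like the other groups. The fit paired the arrays by cell state, and the labels carry no replicate numbers by which animals could be paired. Signal near background limits genes of low level.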
